A study of Mus musculus with 4 samples.

Results

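The respiratory chain and ATP synthase genes described here encode the nuclear parts of the machinery that makes ATP in mitochondria. They were taken by symbol alone: every gene beginning with Nduf, Uqcr, Atp5, Cox4, Cox5, Cox6, Cox7 or Cox8, plus Sdha, Sdhb, Sdhc, Sdhd, Cyc1 and Cycs. This gave 92 of the 18193 genes named on the array, measured by 184 probe sets. Each gene is represented by its brightest probe set over the 4 arrays, and 52 of the 92 had at least 2. The members comprised 34 genes of complex I, 4 of complex II, 9 of complex III, cytochrome c, 17 of complex IV with Ndufa4 counted among them, and 17 of complex V, the ATP synthase. Another 8 were assembly factors of complex I that carry the Nduf prefix, and the other 2 were Ndufa4l2 and Cox7a2l, which are not standing subunits of one complex. The 8 genes reached only by probe sets with several symbols, Ndufs6 and Ndufa11 among them, were not analysed here, nor were Cox7b and the subunits encoded in mitochondrial DNA.

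The arrays followed C57BL/6 mouse marrow cells, from animals aged 8 to 10 weeks, along osteoclast formation in culture, with 1 array per stage and no replicates. Bone marrow macrophages (BMM) had 3 days of M-CSF at 100 ng/ml, and pre-osteoclasts (pOC) had 2 more days with M-CSF and RANKL, each at 100 ng/ml, and were mononuclear cells positive for TRAP. After another 2 days with both cytokines the multinucleated osteoclasts came either from plastic (mOCp) or from dentin slices that they resorb (mOCd). All 4 groups received M-CSF, no allele or other agent is given in the labels, and the labels do not say whether each RNA came from 1 animal or a pool. No array holds cells kept for the same time with M-CSF alone, so the effect of RANKL and of time in culture cannot be told apart. The series is titled for Cthrc1, a protein secreted by osteoclasts, and the arrays were not labelled as a study of mitochondria.

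Complex I takes electrons from NADH and complex II from succinate, complex III passes them to cytochrome c, complex IV hands them to oxygen, and the proton gradient built on the way drives the ATP synthase. Osteoclasts are known as cells rich in mitochondria, since pumping acid onto bone consumes ATP, and the coactivator PGC-1beta (Ppargc1b) is known to promote mitochondrial biogenesis in them. Several complex IV subunits exist in a general form and in a form known from heart and skeletal muscle, testis or low oxygen, and these forms are given separately.

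Values are the linear intensities of the deposited table, whose trimmed mean (2% removed at each end) was 100.0 on every array. The 50th percentile of each array, between 12.7 and 15.8, served as its floor, and lower intensities were raised to it. To be counted as higher or lower, a gene had to differ at least 2-fold between a pair of arrays and to reach, on the brighter one, the 75th percentile of intensity, which was 77.8 to 87.0. With 1 array per group there is no test and no error over replicates. The one gauge of error was how far probe sets for 1 gene differed, with an SD per probe set of 0.41 on the log2 scale for all genes and 0.31 for the members in pOC against BMM. In RNA from whole cultures, fewer cells of a type and less RNA per cell cannot be told apart.

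The osteoclast markers followed the labels, and the macrophage markers did so only in part. Over BMM, pOC, mOCp and mOCd, in that order throughout, the summed intensity of 10 osteoclast markers was 250.6, 32519.8, 50165.5 and 51729.0, with 5 of the 10 above the floor in BMM and all 10 on the other arrays. The 7 macrophage markers summed to 18363.4, 10478.2, 17530.3 and 15585.3, held up by Csf1r and Cd68, so the sum on plastic was near that of BMM. Adgre1 had 1581.9, 319.6, 1191.3 and 491.4, higher again on plastic. Fcgr1 went from 1967.2 in BMM to 57.0, 30.3 and 16.7, and C1qa from 3372.4 to 41.9, 108.9 and 38.9. Cx3cr1 and Mrc1 were also far lower on all later arrays than in BMM. The 8 neutrophil markers summed to 323.5, 841.8, 1886.1 and 968.6, lowest in BMM as most members were. The 5 stromal markers summed to 48.7, 261.9, 93.4 and 183.5 with Col1a1 under the floor on all 4 arrays, and erythroid, B and T cell markers stayed at or near the floor. The part of these other cells in the members' values was not tested.

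Of the 92 members, 89 were above the floor on 1 array or more, 87 were above it on all 4, and 82 were bright enough to be counted in each of the comparisons between successive stages, 81 of them in all of these. The 82 held 73 subunits and 8 assembly factors in pOC over BMM, and 74 and 7 in the later comparisons, where Cox7a1 came in and Ndufaf7 was too dim. The 3 at the floor throughout were Ndufb4, a complex I subunit, and the tissue forms Cox7b2 and Cox8b.

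Across the arrays the members were dimmest in BMM and brightest in the mature osteoclasts. Among the 87 members above the floor on all arrays, 72 (82.8%) lay lower in BMM than in pOC and lower in pOC than on both mature arrays, against 19.7% of the 9047 genes above the floor on all arrays. BMM was the lowest array for 79 members (90.8%) and for 34.1% of all these genes. The order held for all 4 genes of complex II, all 9 of complex III, cytochrome c, all 17 of complex V, 29 of 33 in complex I and 11 of 14 in complex IV. Of the 8 complex I assembly factors, 0 followed it, and 5 had their highest value in pOC, as did 24.4% of all genes above the floor.

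**Figure D1:**
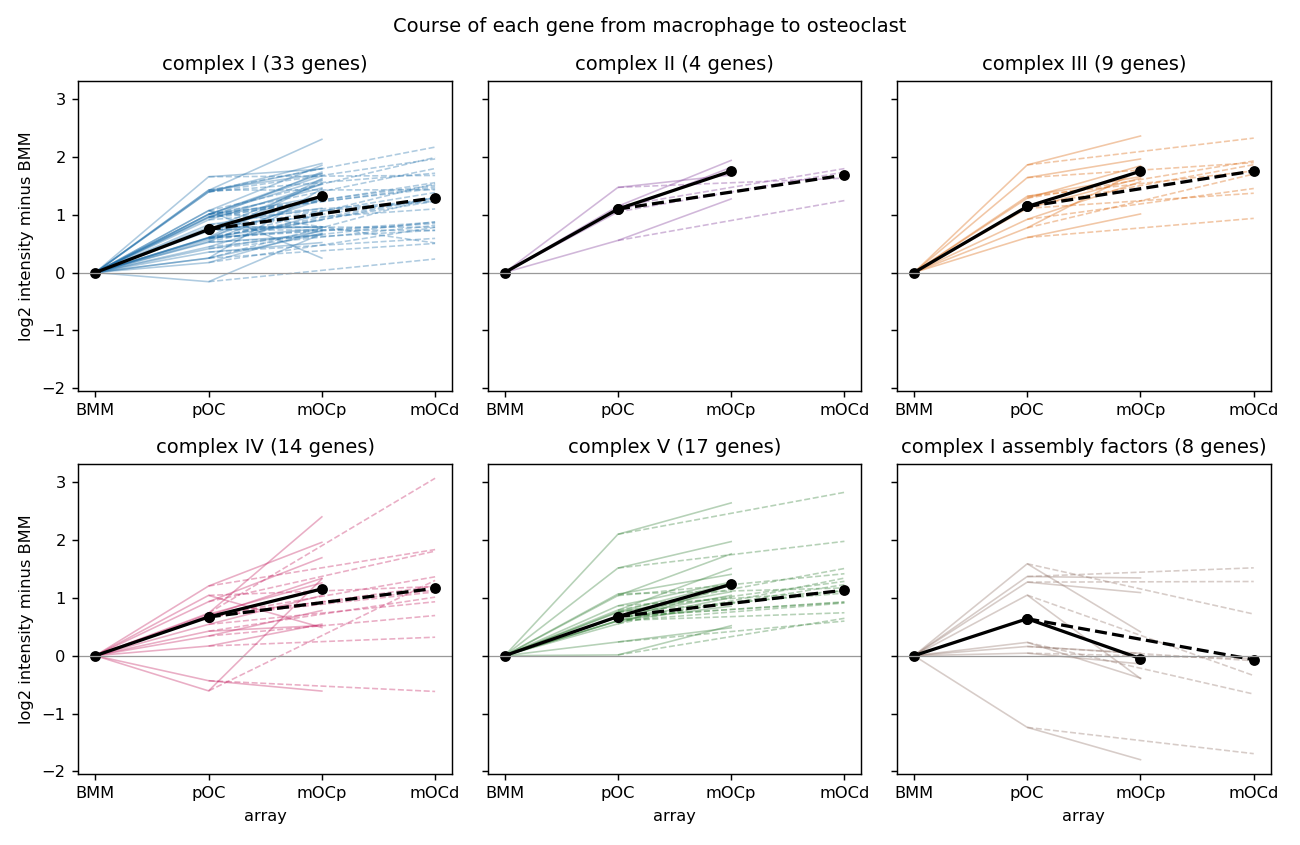
Log2 intensity relative to BMM (vertical axis) of each member above the floor on all arrays, on BMM, pOC and then either mOCp (solid lines) or mOCd (dashed lines); thick black lines are the complex medians. Complexes II, III and V hold no line that turns down between stages, while the median of the complex I assembly factors is 0.64 in pOC and back near 0 in both mature osteoclasts.

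In pre-osteoclasts against macrophages, 28 of 82 members were higher and 1 was lower. Over all genes eligible for the count, 11.1% were higher and 13.2% lower. At any size, 80 of the 82 were brighter in pOC, where 52.8% of all eligible genes were. The median log2 ratio of the members was 0.75, beside 0.09 over all genes measured and 0.05 over the genes bright enough to be counted. The same direction was seen in 67 of 72 further probe sets of the members. At a limit of 1.5-fold, 60 members were higher and 1 lower, with a background of 22.1% and 22.3%. Median scaling, which moved the median of all genes to -0.10, and cyclic loess each gave 16 members higher in place of 28. Over all genes, median scaling gave 589 higher and 1216 lower, beside 809 and 956 as deposited.

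The shift differed in size between complexes. Complex III had a median of 1.14 (2.21-fold) and complex II of 1.10 (2.14-fold), and complexes I, V and IV had 0.75, 0.68 and 0.67. By counts, 6 of 9 genes of complex III and 3 of 4 of complex II were higher, against 10 of 33 of complex I, 4 of 17 of complex V and 1 of the 9 eligible genes of complex IV. Over all eligible genes 11.1% were higher, and the count of complex IV (11.1%) lay at that share. With 1 array each, these differences between complexes were not tested.

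**Figure D2:**
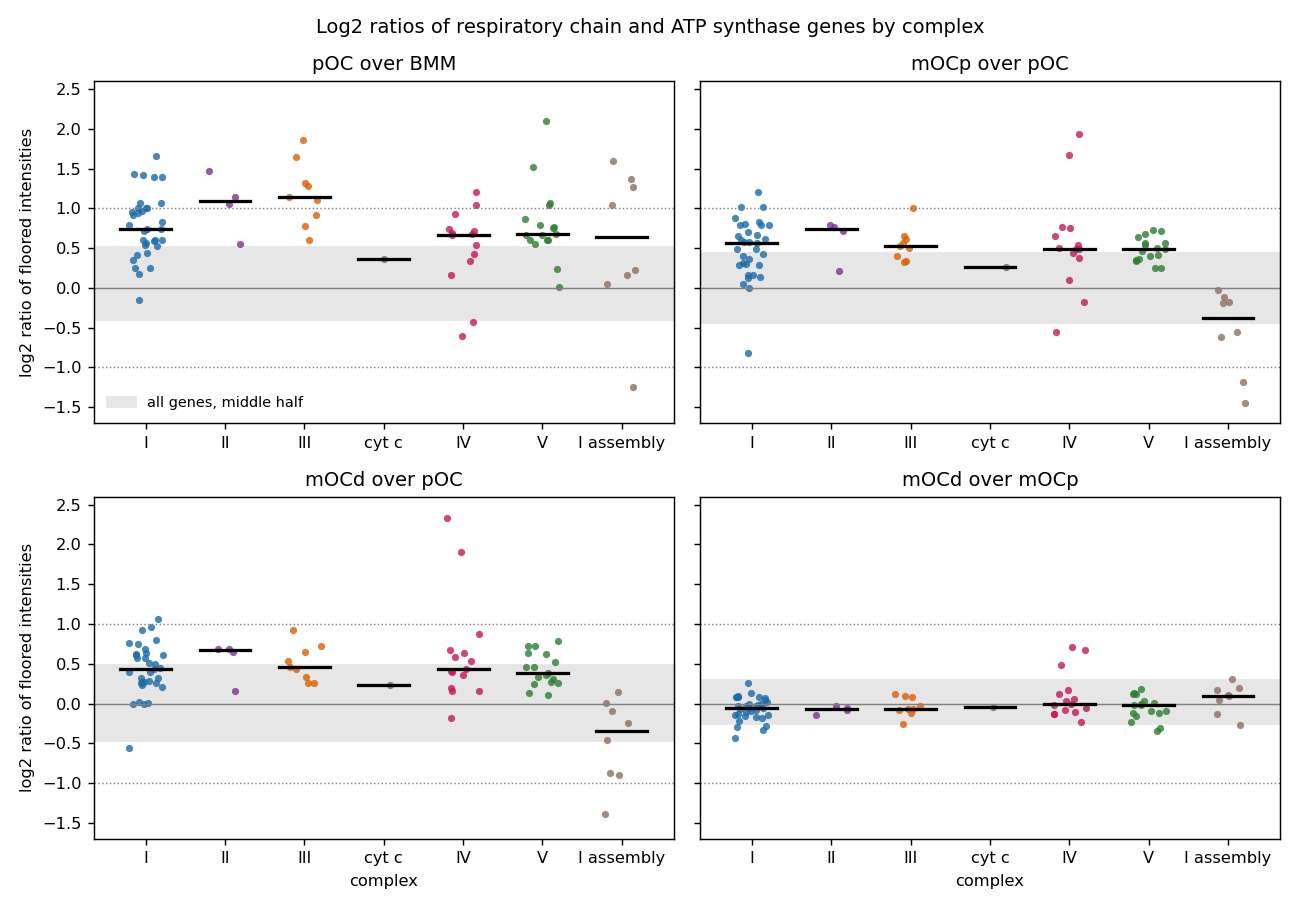
Log2 ratio of floored intensities (vertical axis) of each member, by complex, in 4 comparisons; black bars are medians, the grey band runs from the first to the third quartile of all genes, and dotted lines mark 2-fold. Complexes II and III sit highest in pOC over BMM, the medians of the complexes lie above 0 in both mature comparisons while the median of the assembly factors lies below, and all groups lie near 0 between dentin and plastic.

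Complex III had the highest median. Uqcr10, a small subunit, had 769.3 on the BMM array, 2794.3 on pOC, 3952.1 on mOCp and 3852.8 on mOCd. Uqcrfs1, the Rieske iron-sulfur protein, had 959.2, 2992.4, 3741.0 and 3580.2 in the same order. Cyc1, cytochrome c1, had 1382.6, 3447.3, 4364.2 and 4671.1. For all 3 the macrophage value stood well below the others, and the ratios of pOC to BMM were 3.63, 3.12 and 2.49. The core proteins Uqcrc1 and Uqcrc2, which are not redox carriers, were 2.16-fold and 2.44-fold higher and Uqcr11 2.21-fold. Uqcrb, the quinone-binding protein, had the smallest shift, 0.61 on the log2 scale, at intensities of 5419.4 and 8246.9. The 3 probe sets of Uqcr10 agreed in this step, with log2 ratios between 1.51 and 1.86.

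In complex II, Sdha, the flavoprotein that oxidises succinate, had 1148.7, 2543.0, 4405.8 and 3992.0, a 2.21-fold difference in the first step. Sdhb, its iron-sulfur partner, was 2.07-fold higher. The membrane anchor Sdhd was 2.77-fold higher, from 726.2 to 2015.1, and the other anchor, Sdhc, had the lowest shift at 0.55. A dim further probe set of Sdha, at 36.1 and 26.1, went the other way by -0.47, and a second probe set of Sdhd gave 0.25, so the value for complex II depends on the probe sets used.

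In complex I the 6 core subunits measured, among them those that carry the flavin and the iron-sulfur clusters, had a median of 1.20, and 4 of the 6 were higher. The 27 accessory subunits with a ratio had a median of 0.61, and 6 were higher. Ndufs1, the large iron-sulfur subunit, had 412.9, 1086.7, 1439.7 and 1357.3. Ndufs3 and Ndufs7, core subunits of the module that reduces quinone, were 2.63-fold and 2.69-fold higher in pOC. The flavin-binding Ndufv1 lay just inside the limit at 1.00 on the log2 scale, and Ndufb5 at 0.97 and the core subunit Ndufv2 at 0.96 just outside. The highest member of the complex was accessory, Ndufb10, with 546.6, 1722.9, 1890.6 and 1749.8, so that nearly all of its difference lay in the first step. The others counted as higher were Ndufa6 (2.68-fold), Ndufb1 (2.10-fold), Ndufa10 (2.10-fold), Ndufb9 (2.01-fold) and Ndufab1 (2.01-fold), the mitochondrial acyl carrier protein. Ndufa2, an accessory subunit, was the only subunit of complex I with a negative ratio, -0.16, at 1672.5 in BMM and 1498.7 in pOC.

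In the ATP synthase, Atp5md, a small membrane subunit, had the highest ratio of all members in pOC over BMM. Its intensities were 608.4, 2606.5, 3796.6 and 4308.6, a 4.28-fold difference in the first step and 7.08-fold from BMM to mOCd. The 3 genes for subunit c, the ring that turns in the membrane, encode the same mature protein and differed in this step. Atp5g1 had 920.8, 2631.6, 3614.5 and 3624.8, a ratio of 2.86 for pOC over BMM. Atp5g2 had 1556.4, 2372.3, 2818.1 and 2603.7, and Atp5g3 had 3594.7, 6045.3, 7734.4 and 7613.7, with ratios of 1.52 and 1.68. Atp5g1 was the steepest of the 3, and none of them went down in pOC. Of the catalytic F1 part, Atp5c1, its central stalk, was 2.09-fold higher, and the catalytic Atp5b had a log2 ratio of 0.60. Of the peripheral stalk, Atp5o was 2.06-fold higher and Atp5h had the lowest ratio of the complex, 0.01, although its second probe set gave 0.62.

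Complex IV had 1 member counted as higher, Cox8a, with 853.1, 1966.0, 3319.2 and 3042.8. A second bright probe set gave a log2 ratio of 1.15 against 1.20, and the remaining one was under the floor on all arrays. Among the general forms Cox4i1, Cox6a1, Cox6b1 and Cox7a2 the log2 ratios were 0.67, 0.34, 0.66 and 0.54. Ndufa4, now counted as a subunit of complex IV, had 1469.8, 2807.5, 4754.5 and 5146.2, a ratio of 0.93. The probe set used for Cox7c was dim, between 28.4 and 65.1, so its ratios are imprecise. Cycs, cytochrome c itself, had a ratio of 0.36 on the probe set used (4016.9 to 5144.9) but 1.02 and 1.10 on its other bright probe sets.

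The promoters of the members are shown because most members lay higher together. RefSeq windows of assembly GRCm38.p6, from 250 bases before to 50 after a start site, were found for 75 of the 92 members, as 80 windows. The NRF1 palindrome, the half-site GCGCA joined to its reverse complement, stood in 7.5% of these windows and in 0.971% of all 32851. The ETS letters CCGGAAG, read by GABP among others, stood in 23.8% and 8.86%. The YY1 letters AAGATGGC stood in 12.5% and 2.75%, and AAGGTCA, read by estrogen-related receptors, in 10.0% and 4.72%. ACGTG, the core of hypoxia response elements, stood in 26.2% and 19.6%, and CCAAT in 42.5% and 37.4%. Both strands were searched, and windows of 1 gene can overlap. A match is a description of the letters and not a bound site. The 32851 windows were not limited to genes bright on these arrays, as most members were. Shares over equally bright genes were not computed.

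Of the 6 members with the NRF1 palindrome, Ndufaf5 and Uqcrc1 hold it after the start site, and 4 hold it before: Ndufaf4, Atp5k, Atp5g2 and Cox6a1. Their 120-base stretches follow with the palindrome in capitals. Those of Atp5md and Cox7a1 come next, the members with the highest ratios of pOC to BMM and of mOCd to pOC. In the stretches shown for Atp5md and Cox7a1, which end before the start site, only CCAAT was found among the letters searched. After the start site, Atp5md holds CCGGAAG at bases 2 to 8 and Cox7a1 holds ACGTG at bases 9 to 13. Both of these matches lie on the opposite strand. All stretches are written 5′ to 3′ on the gene's strand.
Ndufaf4, chr4:24897963-24898082, plus strand: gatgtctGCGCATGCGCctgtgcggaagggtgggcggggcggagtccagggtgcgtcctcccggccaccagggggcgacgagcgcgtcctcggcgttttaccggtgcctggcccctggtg
Atp5k, chr5:108434400-108434519, minus strand: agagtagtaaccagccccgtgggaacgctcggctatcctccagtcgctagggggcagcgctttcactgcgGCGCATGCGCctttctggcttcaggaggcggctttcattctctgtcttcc
Atp5g2, chr15:102671048-102671167, minus strand: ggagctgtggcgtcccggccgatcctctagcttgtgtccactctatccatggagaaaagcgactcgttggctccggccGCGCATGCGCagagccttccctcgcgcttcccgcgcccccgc
Cox6a1, chr5:115349009-115349128, minus strand: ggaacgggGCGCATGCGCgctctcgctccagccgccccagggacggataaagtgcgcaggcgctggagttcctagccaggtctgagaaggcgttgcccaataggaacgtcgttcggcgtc
Atp5md, chr19:47090648-47090767, minus strand: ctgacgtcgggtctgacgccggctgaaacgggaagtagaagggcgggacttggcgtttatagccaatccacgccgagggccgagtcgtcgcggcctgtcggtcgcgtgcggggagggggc
Cox7a1, chr7:30184051-30184170, plus strand: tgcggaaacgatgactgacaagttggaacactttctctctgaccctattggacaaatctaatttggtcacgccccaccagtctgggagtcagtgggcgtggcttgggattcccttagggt
Whether the palindrome bears on the course of these 6 genes was not tested. In pOC over BMM the log2 ratios were 1.59 for Ndufaf4, 1.37 for Ndufaf5, 1.11 for Uqcrc1, 0.68 for Atp5k, 0.61 for Atp5g2 and 0.34 for Cox6a1. In mOCp over pOC they were -1.18, -0.02, 0.52, 0.37, 0.25 and 0.44.

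Between pre-osteoclasts and mature osteoclasts most subunits lay higher again, by less. Against pOC, 5 of 82 members were higher and 2 lower in mOCp, with 8.8% and 11.4% over all eligible genes. In mOCd 2 were higher and 1 lower, beside 10.8% and 12.3%. The 2-fold counts did not exceed the background, and the shift consisted of small differences: 74 of 82 members were brighter in mOCp and 74 of 82 in mOCd, beside 48.8% and 49.5% of all eligible genes. At 1.5-fold, 29 were higher and 4 lower in mOCp (19.8% and 22.4% of all eligible genes), and 27 were higher and 3 lower in mOCd (22.2% and 24.1%). The medians were 0.49 in mOCp and 0.41 in mOCd, beside 0.01 over all genes in both. Both comparisons use the same pOC array, which also enters pOC against BMM.

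The size of this second step depended on the scaling. Spike-in controls added at hybridisation were brighter than in pOC by 0.41 (log2) in mOCp and by 0.28 in mOCd. Scaled to them, the members' medians were 0.08 and 0.13, with the median of all genes at -0.40 and -0.27, and 1 member was higher and 4 lower in mOCp. Over all genes that scaling gave 294 higher and 1602 lower in mOCp, beside 633 and 820 as deposited, and 494 and 1420 in mOCd, beside 779 and 886. Relative to the median of all genes the members lay higher under both scalings, and cytochrome c turned to -0.14 in mOCp and -0.05 in mOCd.

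**Figure D3:**
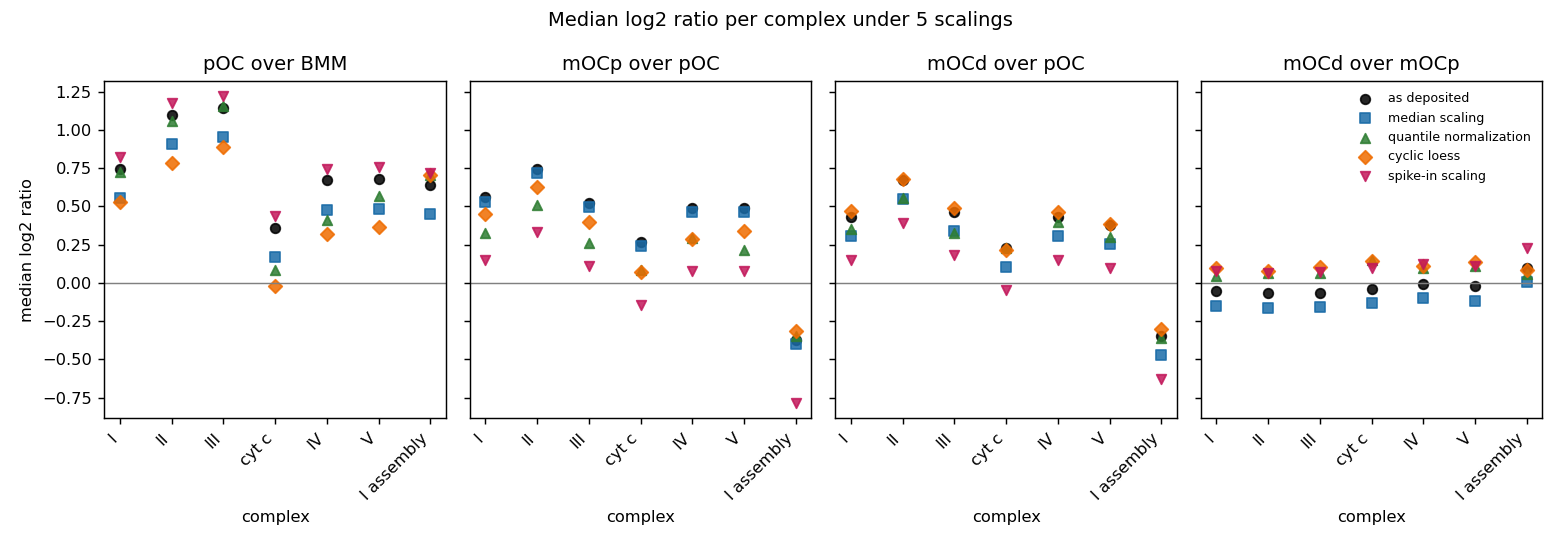
Median log2 ratio per complex (vertical axis) in 4 comparisons under the deposited scaling, median scaling, quantile normalization, cyclic loess and spike-in scaling. In pOC over BMM the complexes keep positive medians except cytochrome c under loess (-0.02); in both mature comparisons the spike-in points lie lowest.

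By complex, the medians in mOCp and mOCd over pOC were 0.74 and 0.67 for complex II, 0.56 and 0.43 for complex I, 0.52 and 0.46 for complex III, 0.49 and 0.43 for complex IV and 0.49 and 0.38 for complex V. In complex I the core subunits, which had the larger first step, had 0.38 and 0.30, and the accessory subunits 0.58 and 0.44. Over the 78 subunits, cytochrome c included, above the floor on all arrays, the mean log2 difference from BMM to pOC was 60.6% of that from BMM to mOCp and 62.0% of that from BMM to mOCd. On plastic the share was 68.5% for complex III. For the 14 complex IV genes, among them the dim tissue forms Cox8c and Cox7a1, it was 47.1%, and for the 10 general forms alone, a subset taken after these values were seen, 61.1%. The first step was the larger for 57 of the 78 on plastic and for 59 on dentin. These shares and counts are for the deposited scaling and were not computed under the others, on which the size of the second step depended.

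Over the whole course, 60 of 83 eligible members were higher in mOCp than in BMM and 1 was lower, beside 16.9% and 19.4% of all eligible genes. In mOCd 54 were higher and 1 lower, beside 18.8% and 20.3%. All 4 genes of complex II were higher on both arrays, as were all 6 core subunits of complex I. In complex III all 9 were higher in mOCp and 8 in mOCd, where Uqcrb had a log2 ratio of 0.94. In complex V 14 of 17 and 11 of 17 were higher. The medians were 1.27 and 1.24 on the log2 scale. These whole-course values were not computed under the other scalings. The spike-ins were brighter than in BMM by 0.34 (log2) in mOCp and by 0.20 in mOCd.

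On the probe sets used, the members counted as higher in the second step were 3 accessory subunits of complex I, Cox7a1 and Cox7a2l. Those counted as lower were assembly factors. Of the 27 eligible accessory subunits of complex I, 3 (11.1%) were higher in mOCp and 1 (3.7%) in mOCd. Over all eligible genes these shares were 8.8% and 10.8%, so the count is no excess of that class. Ndufv3, an accessory subunit at the flavin end of complex I, had 1029.6, 1221.8, 2811.4 and 2540.9, so its values formed a low pair and a high pair, with ratios of 2.30 and 2.08 to pOC. Ndufa1 had 1546.1, 2292.0, 4656.1 and 4481.8, and Ndufa3 had 1781.8, 2711.5, 5494.4 and 4376.5. Both are small membrane subunits of complex I and reached 2.03-fold in mOCp. A second bright probe set of Ndufa3 gave 0.74 and a dim one, under 60 on all arrays, gave -1.15, so its count as higher depends on the probe set. Uqcrq of complex III lay just outside, at 1711.0 in pOC and 3417.1 in mOCp. Ndufb1, with 134.3, 282.3, 159.6 and 191.4, was the only complex I subunit lower in mOCp than in pOC (-0.82), and a dimmer one than the rest measured.

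Cox7a1 had the highest ratio of the eligible members in both mature comparisons with pOC. This is the form of subunit 7a known from heart and skeletal muscle, and its intensities were 45.1 in macrophages, 75.1 in pOC, 238.2 on plastic and 378.2 on dentin. Both mature values lay well above both earlier ones, with ratios to pOC of 3.17 and 5.04, and 8.39 for mOCd over BMM. Its general counterpart Cox7a2 had 4208.2, 6124.8, 8648.9 and 8029.9, ratios of 1.41 and 1.31 to pOC. Cox7a2l, which encodes a related protein, had 714.7, 1309.4, 2787.5 and 2567.7, and its 3 probe sets gave log2 ratios between 0.98 and 1.19 in mOCp over pOC. It counted as higher in mOCp and lay just under the limit in mOCd, at 0.97.

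**Figure D4:**
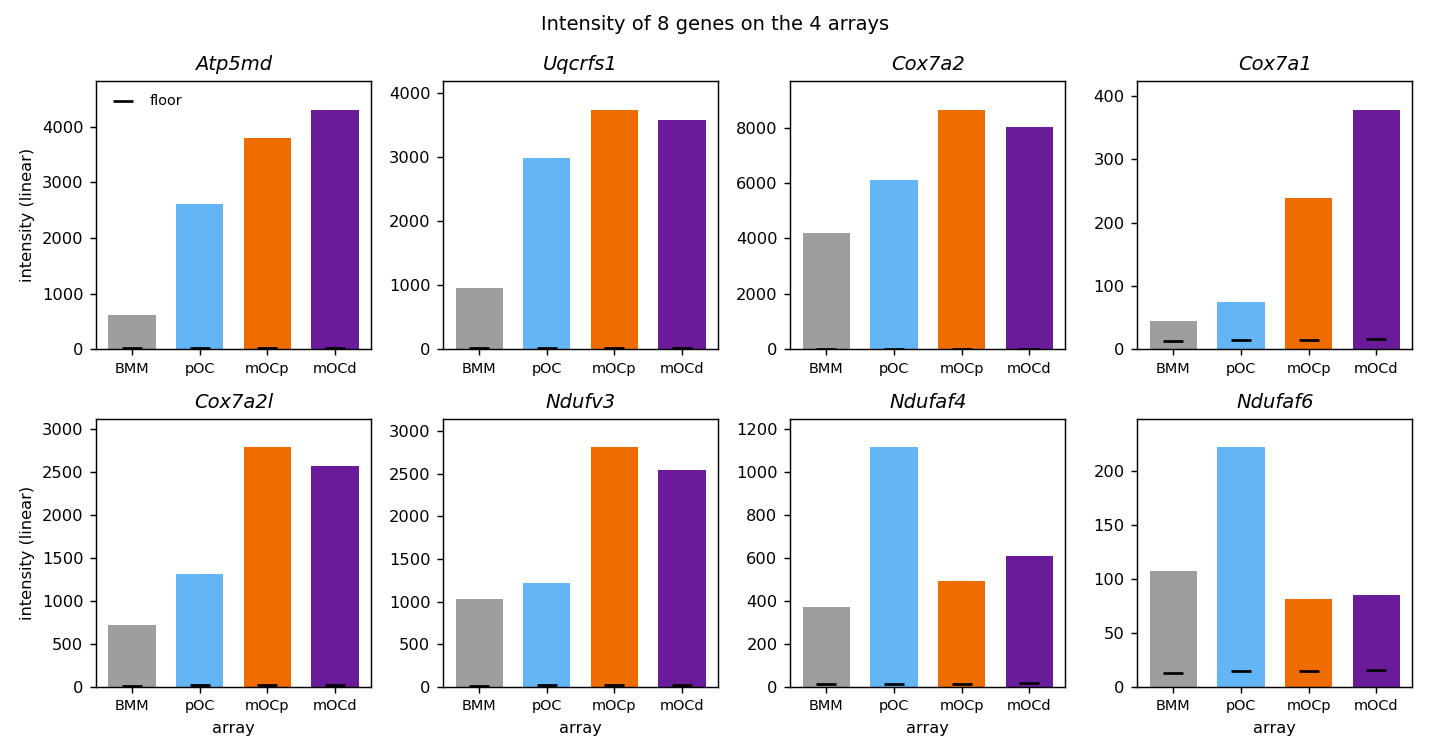
Linear intensity (vertical axis, a separate scale per gene) of 8 members on the 4 arrays; each bar is 1 array and the short black line is that array's floor. Atp5md, Uqcrfs1 and Cox7a2 climb from BMM to the mature arrays, Cox7a1, Cox7a2l and Ndufv3 are highest in the mature osteoclasts, and Ndufaf4 and Ndufaf6 are highest in pOC.

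The other tissue or oxygen forms of complex IV were dim on every array. Cox4i2, the form known from lung and low oxygen, was above the floor only in mOCd, at 16.6, while Cox4i1 had 3005.7, 4796.4, 6715.8 and 6453.1. The muscle form Cox6a2 lay between 21.1 and 32.4 and the testis form Cox6b2 between 17.9 and 36.1. Cox8c, a testis form, had 30.5, 20.0, 76.5 and 75.2, just under the 75th percentile on both mature arrays, and its second probe set went the other way, by -0.53 in mOCp over pOC. Ndufa4l2, a hypoxia-induced relative of Ndufa4, was above the floor only in mOCp, at 37.5, which is at least 2.59-fold higher than in pOC for a gene too dim to be counted.

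The assembly factors of complex I, chaperones that build the complex without staying in it, went with the subunits in the first step and apart from them in the second. In pOC over BMM their median was 0.64, with 4 of 8 higher and 1 lower, where 11.1% and 13.2% of all eligible genes were. In mOCp and mOCd over pOC it was -0.37 and -0.35 over all 8, and 0 were higher. Of the 7 eligible there, Ndufaf7 being too dim, 2 (28.6%) and 1 (14.3%) were lower, beside 11.4% and 12.3% of all eligible genes. Over these 7 the medians were smaller in size, at -0.19 and -0.25. At any size 0 of the 7 in mOCp and 2 in mOCd were brighter, beside 48.8% and 49.5% of all eligible genes. Scaled to the spike-ins the medians over all 8 were -0.78 and -0.63, and every scaling kept them below 0.

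Ndufaf4 had 370.2, 1113.6, 492.6 and 609.6, so that pOC stood alone above the other 3. It was 3.01-fold higher in pOC than in BMM and 2.26-fold lower in mOCp than in pOC, and its second probe set gave 1.46 and -0.78 on the log2 scale. Ndufaf6 had 107.4, 221.9, 81.7 and 84.6, with the mature values under that of BMM. Ndufaf1 and Ndufaf5 had 161.6, 390.2, 344.2 and 393.1, and 80.4, 207.6, 204.1 and 230.4, so their mature values lay near that of pOC. Ndufaf7, a mitochondrial methyltransferase, was the only member counted as lower in pOC, with 111.0, 47.0, 31.9 and 34.3. Ndufaf2, Ndufaf3 and Ndufaf8 differed by less than the 2-fold limit in each comparison between successive stages.

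Assembly factors outside the Nduf prefix lay higher in pOC, and none of them passed 2-fold upward in the second step. Of 43 listed, for complexes I to V, 40 had a probe set, and in pOC over BMM 9 of the 35 eligible were higher (25.7%, beside 11.1% of all eligible genes) and 0 lower, with a median of 0.64. In mOCp over pOC 0 of 37 were higher and 2 lower (5.41%, under the background of 11.4%), with a median of -0.06. In mOCd 0 of 36 were higher and 3 lower (8.33%, under the 12.3% of all eligible genes). The median there was -0.14 over the 40 with a ratio and -0.20 over the 36 eligible. At any size 13 of the 37 and 11 of the 36 were brighter (35.1% and 30.6%), beside 48.8% and 49.5% of all eligible genes. With the spike-ins the medians over the factors with a ratio were -0.47 in mOCp and -0.42 in mOCd. Bcs1l, which inserts the Rieske protein into complex III, had 97.4, 298.9, 93.7 and 88.4, so its pOC value alone was high while Uqcrfs1, the protein it inserts, stayed high in the mature cells. Ecsit, a complex I assembly factor, had 101.3, 341.6, 245.7 and 220.5. Uqcc1, needed for the cytochrome b of complex III, had 95.2, 308.3, 286.2 and 236.2.

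Genes for neighbouring mitochondrial functions showed both courses. The 12 TCA cycle enzymes measured had medians of 0.95 in pOC over BMM and 0.37 and 0.40 in mOCp and mOCd over pOC, the first of which turned to -0.05 with the spike-ins in mOCp. The 76 mitochondrial ribosomal proteins had 0.68 in the first step and -0.30 and -0.44 in the second, on the same side of 0 in every scaling. Citrate synthase (Cs) had 1287.8, 2705.4, 3480.6 and 3491.5. Atpif1, the inhibitor protein of ATP synthase, had 1976.8, 2316.6, 1896.2 and 1618.7, a course unlike that of the 17 subunits.

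Among regulators of these genes, Ppargc1b had 27.8, 550.6, 593.1 and 1156.5, and its receptor partner Esrra 129.8, 319.7, 233.4 and 267.3. In pOC over BMM the 13 regulators with a ratio had a median of 0.45, beside 0.75 for the members. Nrf1, Gabpa, Yy1 and Tfb1m were dimmer in that step, at -0.52, -0.25, -0.12 and -0.525, and the others with a ratio were brighter. Of the 12 regulators eligible in mOCp over pOC 11 were dimmer and 1 brighter, where 48.8% of all eligible genes were brighter. Nrf1, too dim to be counted, had 61.2 in pOC and 77.1 in mOCp, a log2 ratio of 0.33, and -0.31 in mOCd over pOC. Over the 13 regulators with a ratio the median in mOCp over pOC was -0.71. Polrmt, the mitochondrial RNA polymerase, counted as lower there, and in mOCd, at -0.86, it did not. In mOCd over pOC 11 of the 12 eligible were dimmer, and the median over the 13 with a ratio was -0.33. Gabpb1, a subunit of GABP, and Tfb1m, a mitochondrial rRNA methyltransferase, counted as lower there, and Ppargc1b as higher. Ppargc1a was under the floor on all 4 arrays. Pdk1, a kinase that inhibits pyruvate dehydrogenase, had 350.0, 280.5, 1190.3 and 1250.0. Bnip3, a marker of mitophagy and low oxygen, had 202.9, 258.9, 3637.7 and 3884.1. Both were higher on the mature arrays, where most subunits were also at their highest. They were listed with other genes tied to oxygen, whose courses differed. Egln3 had 297.8 in mOCp and 183.7 in mOCd and was under the floor before. Hif1a went the other way, with 1729.0, 954.8, 578.1 and 648.5. Higd1a and Lonp1 were brighter than in pOC by less than 2-fold. Whether oxygen bears on the members was not tested.

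Dentin and plastic gave nearly the same values. In mOCd against mOCp, 0 of 82 members were higher and 0 lower at 2-fold, where 2.15% and 2.55% of all eligible genes were, and 1 was higher at 1.5-fold and 0 lower, where 9.17% and 7.59% were. This 1 was Cox7a1, at 1.59-fold, with no other probe set. The median was -0.04, with 28 members brighter and 54 dimmer (51.0% and 49.0% of all eligible genes). Over all genes the split was 149 higher and 176 lower as deposited, 108 and 230 with median scaling, and 230 and 130 with the spike-ins. The medians of complexes I to V lay between -0.07 and -0.01, and quantile normalization, cyclic loess and spike-in scaling turned the members' median to values between 0.08 and 0.10. The further probe sets of the members shared the direction in 45 of 76 cases only, so at this precision no difference between the substrates was detectable for these genes.

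Probe sets of the same gene set the limit on single values. For members, further probe sets shared the direction in 69 of 78 cases in mOCp over pOC and in 70 of 79 in mOCd over pOC, with SDs per probe set of 0.36 and 0.33. Among probe sets above the floor on all 4 arrays, those that disagreed by over 1 with opposite signs belonged to Atp5j2, Ndufa12, Ndufa3, Ndufb8, Ndufs8 and Sdha, and in each of these a dim probe set, under 100 on every array, was one of those in disagreement. The 3′ to 5′ log2 ratio of the transferrin receptor control was 1.70 in mOCd, against 0.84 to 1.01 on the other arrays, and its part in the members' values was not tested.

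**Figure D5:**
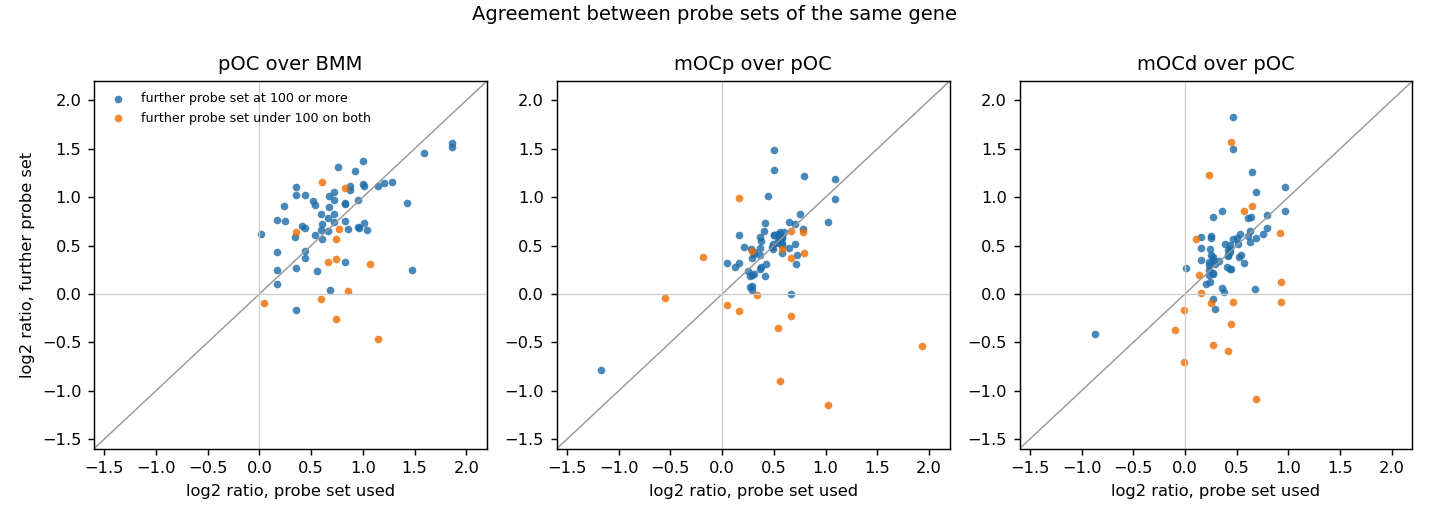
Log2 ratio of each further probe set of a member (vertical axis) against that of the probe set used for the gene (horizontal axis), both above the floor, in 3 comparisons; the diagonal marks equal ratios. Most points lie in the upper right, and most of the points on opposite sides of 0 are further probe sets under 100 on both arrays (orange).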

How the data were processed

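RNA of 4 cultures was measured on Affymetrix arrays, 1 per group, per the labels. The deposited values are linear intensities, 1 per probe set, and the submitters' processing notes name MAS5, its version not given in the sources used here. The authors' scaling to a common trimmed mean removes differences in total mRNA, and MAS5 background subtraction leaves dim probe sets imprecise.

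Python 3.11.15 with pandas 2.3.3 set values under each array's 50th percentile to it, took for each gene its brightest probe set by mean log2, and counted genes at 2-fold or more whose brighter value reached the 75th percentile. Ratios with both values at the floor were left out. R 4.3.3 with limma 3.58.1 gave the loess alternative. The counting was tested on simulated data.

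Members named singly were those counted as higher or lower, the extremes of each complex in pOC against BMM, isoform families, members with discordant probe sets and genes of the lists, and the others named were chosen after their values were seen. Members and lists were chosen with earlier results of these data known. Alternatives were 4 scalings, floors at the 40th and 60th percentiles, the mean over probe sets, no suffixed probe sets (names ending in _a_at, _s_at or _x_at), no brightness filter, a 1.5-fold limit and subunits only.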

Additional observations from a re-analysis of the deposited data

How the results depend on the processing

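No paired analysis was possible because each group has 1 array. As deposited, 28 members were higher and 1 lower in pOC over BMM, 5 and 2 in mOCp over pOC, 2 and 1 in mOCd over pOC, and 0 and 0 in mOCd over mOCp. Of 88 counts under the alternatives 62 stayed within 1.5 times. Medians were set against the SD of single probe sets, which is wide for a median, so a move within it says nothing of stability: with spike-in scaling the members' median went from 0.49 to 0.08 in mOCp over pOC and from 0.41 to 0.13 in mOCd over pOC. The count of members higher in pOC over BMM was 16 with median scaling and 16 with cyclic loess. Members higher in mOCp over pOC numbered 3 with median scaling, 2 with quantile normalization, 3 with cyclic loess, 1 with spike-in scaling and 2 without suffixed probe sets. Members lower there numbered 4 with spike-in scaling and 1 with the mean over probe sets. In mOCd over pOC, 1 was higher with median scaling, quantile normalization or spike-in scaling, and 2 were lower with median scaling and 3 with spike-in scaling. In mOCd over mOCp, 1 was higher without suffixed probe sets and 1 lower without the brightness filter. Without suffixed probe sets 0 members were lower in pOC over BMM, since Ndufaf7 has only a suffixed one. With subunits only, 0 were lower in pOC over BMM, in mOCp over pOC and in mOCd over pOC, since the members lower there are assembly factors. At 1.5-fold the counts were 60 higher in pOC over BMM, 29 higher and 4 lower in mOCp over pOC, 27 higher and 3 lower in mOCd over pOC, and 1 higher in mOCd over mOCp. The median of complex II in pOC over BMM was 0.68 with the mean over probe sets, and cytochrome c had 1.10 without suffixed probe sets. Except where a probe set or member was left out, the cause of these moves was not tested.

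The members' median lay between 0.48 and 0.82 in pOC over BMM, 0.08 and 0.50 in mOCp over pOC, and 0.13 and 0.44 in mOCd over pOC, over 9 alternatives. In mOCd over mOCp it ran from -0.13 to 0.10, with a change of sign in 3 of the 9. Of 39 single calls, 17 held in every alternative that gave a value and 39 kept their sign. Probe sets near the floor, under about 100, limit what can be said of the tissue forms of complex IV.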
